A study of Mus musculus with 20 samples.

Results

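Transcripts of 10 NK-type receptors and adaptors (Klrk1, Klrd1, Klrc1, Klrc2, Klre1, Klrg1, Klrb1c, Nkg7, Fcer1g and Tyrobp) were followed in mouse CD8+ T cells given murine IL-21 (mIL-21) or 21h10, a designed protein mimic of IL-21. The genes were chosen by name as receptors, adaptors and a granule protein best known from natural killer (NK) cells, and they are 10 of the 23992 gene symbols listed. The CD8+ T cells came from spleens of wild-type C57BL/6J mice 6 to 8 weeks old, were isolated by negative selection, activated for 48 hours with plate-bound anti-CD3 (2 µg/mL) and soluble anti-CD28 (1 µg/mL) and left overnight without stimulus before 24 hours of culture with mIL-21 (written WT in the labels), with 21h10 (written h10) or without cytokine. Experiment 1 used 100 pM and 1 nM of each protein and experiment 2 used 10 nM and 100 nM. Each experiment had its own cells without cytokine, so that it held 5 groups with 2 libraries each, 20 libraries in all. Cells of every group, those without cytokine included, had been activated through CD3 and CD28. The labels call the libraries of a group duplicates and do not name the mice behind them, while the study's methods state in general that RNA-seq replicates were independent, from separate tissue preparations or donors. Which duplicates shared a preparation is not given in the sources used here, so the p-values measure the spread between these libraries.

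Killer cell lectin-like receptors (the Klr genes) are C-type lectin-like proteins of NK cells that activated CD8+ T cells also carry. Klrk1 encodes NKG2D, an activating receptor for stress-induced ligands, which has no signaling motif of its own and associates with the adaptor Hcst (DAP10) and, in one of its mouse forms, with Tyrobp (DAP12). Klrd1 encodes CD94, which pairs either with the inhibitory NKG2A (Klrc1) or with the activating NKG2C (Klrc2) and binds the non-classical MHC molecule Qa-1. Fcer1g and Tyrobp carry immunoreceptor tyrosine-based activation motifs, through which several NK receptors signal. Nkg7 encodes a membrane protein of cytotoxic granules, and Klrg1 encodes an inhibitory receptor for cadherins that marks differentiated effector cells. IL-21 signals through its receptor and the common γ chain, mainly by activation of STAT3, and is known to act on CD8+ T cells and NK cells.

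The genes of the NKG2 complex lie next to each other on mouse chromosome 6 (GRCm38). Klre1 (chr6:129577905-129585827) and Klrd1 (chr6:129591782-129598775) are on the plus strand and are followed by Klrk1 (chr6:129610323-129623864), Klrc3 (chr6:129639064-129643337), Klrc2 (chr6:129647496-129660689) and Klrc1 (chr6:129666015-129678973) on the minus strand, 101.1 kb from end to end. Klrb1c (chr6:128778485-128789215, minus strand) and Klrg1 (chr6:122270596-122282882, minus strand) lie before this cluster on the same chromosome, Klrb1c 788.7 kb from Klre1. Nkg7 (chr7:43437073-43438249, plus strand) and Tyrobp (chr7:30413760-30417585, plus strand) are on chromosome 7, where Hcst (chr7:30417712-30419854, minus strand) is the neighbor of Tyrobp, and Fcer1g (chr1:171229572-171234365, minus strand) is on chromosome 1. Parts of the Klrc transcripts are near-identical. The Klrc1 transcript matched that of Klrc2 at 98.9% identity over 1163 bases, or 58.6% of its length, and the Klrc3 transcript matched that of Klrc2 at 96.2% over 715 bases, so reads may be divided among these genes. Klrb1c shares 13.9% of its exonic bases with Gm44511 on the same strand.

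RefSeq promoters (GRCm38.p6, 250 bases before to 50 bases after the start) were available for 7 of the 10 genes, those other than Klrd1, Klrg1 and Tyrobp. The promoters of Nkg7 and Klrk1 are shown. Nkg7 was above the cells without cytokine in all 8 treated groups. With all libraries fitted, Klrk1 alone of the 10 genes passed the test for a dose change of the cytokine difference in experiment 1. Capitals mark matches to 3 searched motifs, each read on both strands: TTCNNNGAA (a STAT-type site), TCACACC (a T-box core) and TGTGGTT (a RUNX core).
Nkg7, chr7:43436888-43437187, plus strand: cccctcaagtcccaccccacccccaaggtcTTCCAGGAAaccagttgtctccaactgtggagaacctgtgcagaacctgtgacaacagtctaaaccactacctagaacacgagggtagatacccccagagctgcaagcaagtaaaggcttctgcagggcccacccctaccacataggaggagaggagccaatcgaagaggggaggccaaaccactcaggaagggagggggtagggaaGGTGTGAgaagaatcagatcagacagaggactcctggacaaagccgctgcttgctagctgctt
Klrk1, chr6:129623815-129624114, minus strand: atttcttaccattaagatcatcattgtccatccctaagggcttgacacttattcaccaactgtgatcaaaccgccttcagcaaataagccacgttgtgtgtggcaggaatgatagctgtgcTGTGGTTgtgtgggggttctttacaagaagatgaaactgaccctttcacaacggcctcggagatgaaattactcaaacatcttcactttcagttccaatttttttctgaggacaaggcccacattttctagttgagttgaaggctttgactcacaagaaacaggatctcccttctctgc
The Nkg7 promoter held TTCCAGGAA from position -220 and, as its reverse complement GGTGTGA, the T-box core from position -13, counted from the start. Klrk1 held TGTGGTT from position -129, and 1 of the 2 listed Klre1 promoters held it from position -229. Among 32851 promoters of this length, 8.3% held TTCNNNGAA, 3.98% held TCACACC and 5.27% held TGTGGTT. A match describes the letters of this window and not a bound site.

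The libraries of experiment 1 held 36829350 to 94079673 reads on genes and those of experiment 2 held 27074399 to 43303144. The libraries carried the markers of CD8+ T cells, with a summed level of Cd3e, Cd3d, Cd3g, Cd8a and Cd8b1 between 1055 and 1830 scaled RPKM (reads divided by transcript length and by library size, as in RPKM, with library sizes scaled by TMM). In experiment 1 this sum was 1055 and 1057 without cytokine and 1202 to 1563 with cytokine. In experiment 2 it was 1489 and 1420 without cytokine and 1701 to 1830 with cytokine. The summed level of 6 NK cell markers (Ncr1, Klra4, Klra8, Klra9, Klri2 and Adamts14) was between 3.73 and 9.90 scaled RPKM. Ncr1, a defining marker of NK cells, had 3 reads or fewer in 14 of the 20 libraries. It was the only one of these markers with so few reads. Klra4, Klra8, Klra9, Klri2 and Adamts14 each had more than 3 reads in every library. The NK marker sum was lower in the cells without cytokine (3.73 to 4.03 in experiment 1 and 4.96 to 5.71 in experiment 2) than in the treated cells (7.49 to 9.12 and 6.46 to 9.90). Its part in the results below was not tested. As in any bulk measurement, more cells of one kind and more RNA per cell cannot be told apart.

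All 10 genes passed the filter on low counts in both experiments, but their levels covered a wide range. Nkg7 was the highest, between 166 and 593 scaled RPKM in experiment 1 and between 135.6 and 440 in experiment 2. Klrd1 followed at 121 to 246 and 199 to 407, and in experiment 2 the ranges of these 2 genes overlapped. Klrk1 was between 32.9 and 90.7, and Klrc1 between 21.8 and 63.5 over both experiments. Klre1 (6.51 to 15.9) and Klrc2 (4.41 to 11.5) were lower and overlapped each other. The last 4 genes were near the limit of these libraries: Fcer1g was between 0.833 and 3.57, Tyrobp between 0.314 and 1.74, Klrg1 between 0.158 and 0.653 and Klrb1c between 0.0141 and 0.311 scaled RPKM, with as few as 17, 7, 11 and 1 reads per library. Both adaptors with activation motifs were thus below CD94 (Klrd1), NKG2A (Klrc1) and NKG2D (Klrk1) in every library.

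**Figure D1:**
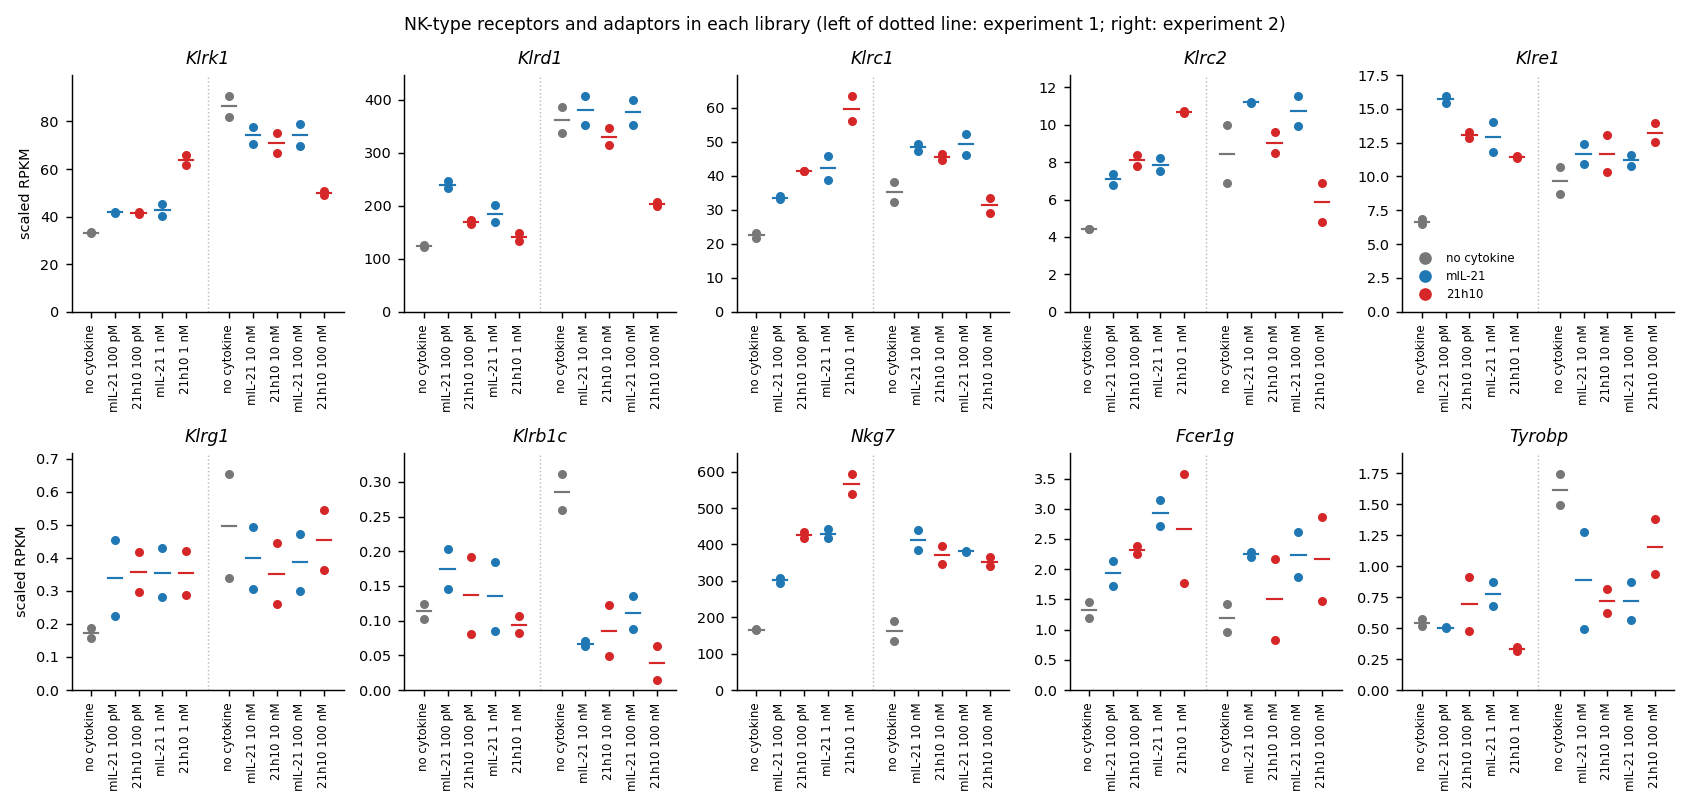
Level of each of the 10 genes in scaled RPKM (y axis, starting at 0, a separate scale per gene) in each library, with experiment 1 to the left and experiment 2 to the right of the dotted line; points are libraries, short lines are group means, gray is no cytokine, blue is mIL-21 and red is 21h10. Klrk1 at 1 nM 21h10 (61.6 and 65.8) is above every other library of experiment 1, while Klrk1 and Klrd1 at 100 nM 21h10 are the lowest of experiment 2.

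Cells without cytokine differed between the experiments. Their mean level in experiment 2 was 2.92 times that in experiment 1 for Klrd1, 2.60 times for Klrk1 and 1.56 times for Klrc1, but 0.98 times for Nkg7. The experiment and its dose range cannot be told apart, so that levels were tested only within an experiment.

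Every low dose of either cytokine raised most of these genes over the cells without cytokine. Calls were made at a Benjamini-Hochberg adjusted p under 0.05 in edgeR's quasi-likelihood test over all genes tested, and this p is written here as edgeR adjusted p. In experiment 1, 100 pM mIL-21 raised 7 of the 10 genes and lowered 0, where 77.7% of all genes tested were called, 38.3% higher and 39.4% lower. With 100 pM 21h10, 8 genes rose and 0 fell (81.6% of all genes called, 40.2% higher and 41.3% lower). The same 8 genes rose with 1 nM mIL-21 (80.1% called, 39.9% higher and 40.3% lower) and with 1 nM 21h10 (80.3% called, 38.3% higher and 42.1% lower), and 0 fell. The median log2 fold change of the 10 genes in these 4 comparisons was 0.67, 0.83, 0.86 and 0.93, against medians of all genes between -0.04 and 0.00. The 8 genes were Klrk1, Klrd1, Klrc1, Klrc2, Klre1, Nkg7, Klrg1 and Fcer1g, of which Fcer1g did not pass at 100 pM mIL-21 (edgeR adjusted p = 0.11) but did so without a filter on low counts (0.0499), with the compared groups alone (0.0324), with library sizes from mapped reads (0.0386) and without either library at 1 nM 21h10 (0.0461 and 0.0437). The 4 comparisons share the same libraries without cytokine.

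At the high doses of experiment 2 fewer genes passed and the directions were mixed. Klrc1 and Nkg7 rose with 10 nM mIL-21 and Klrb1c fell (46.2% of all genes called, 22.5% higher and 23.7% lower). With 10 nM 21h10 (50.1% called, 25.2% higher and 24.9% lower), Klrc1 and Nkg7 rose while Klrk1 and Klrb1c fell. Only Klrc1 and Nkg7 passed at 100 nM mIL-21 (46.2% called, 22.5% higher and 23.7% lower), both of them higher. Klrc2 passed at neither dose of mIL-21 in this fit. With the most-read transcript it was called higher at 10 nM mIL-21 (0.50, edgeR adjusted p = 0.0446). Without the second duplicate of the cells without cytokine it was called higher by 0.70 at 10 nM and by 0.64 at 100 nM mIL-21. With 100 nM 21h10 (50.8% called, 25% higher and 25.8% lower), Nkg7 and Klre1 rose and Klrk1, Klrd1 and Klrb1c fell. The median log2 fold change of the 10 genes was 0.17 and -0.02 at 10 nM and 0.13 and -0.33 at 100 nM for mIL-21 and 21h10, against all-gene medians between -0.02 and 0.00. Library sizes taken from mapped reads in place of TMM moved the median of all genes against the cells without cytokine by as much as -0.30 (log2) in experiment 2, and log2 fold changes given here are those after TMM. Limma was run on the deposited RPKM, which also divides by mapped reads. Calls in limma and with library sizes from mapped reads therefore share a scaling and are not independent of each other.

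**Figure D2:**
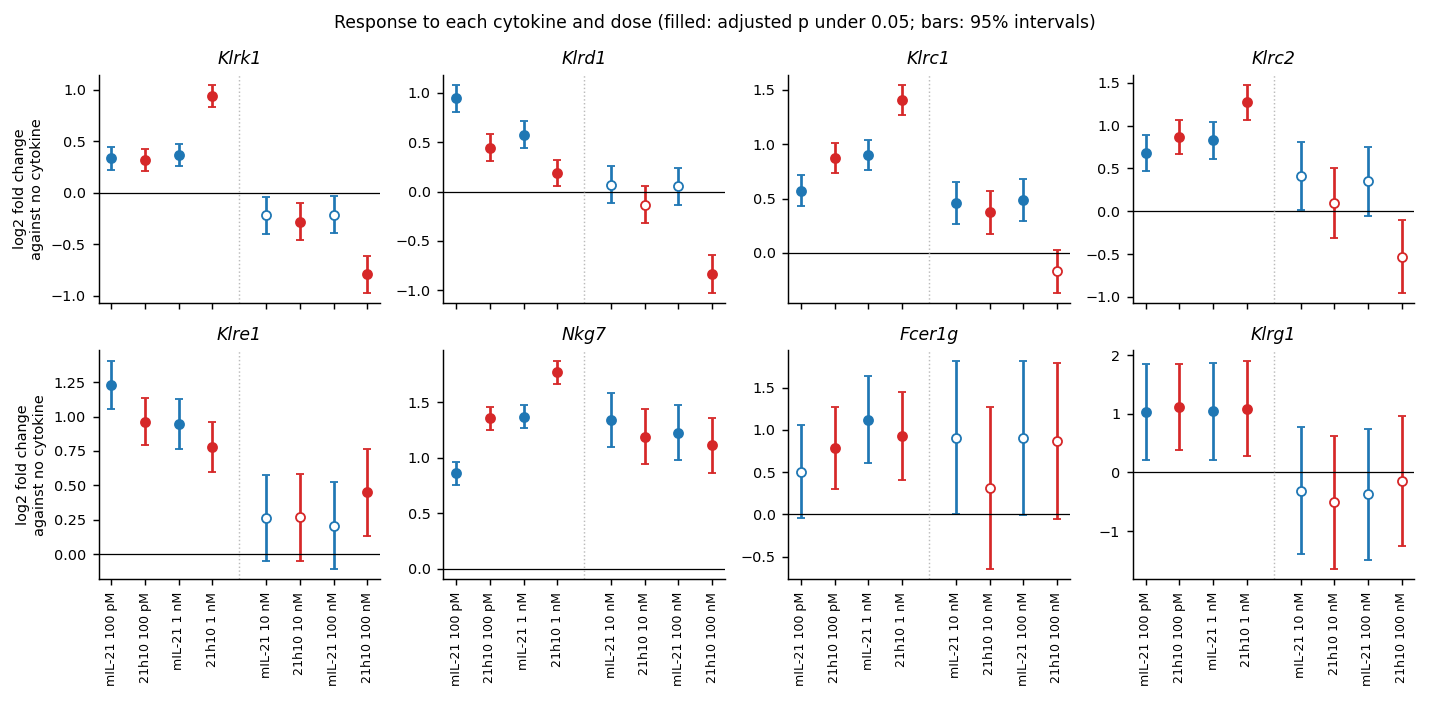
Log2 fold change against the cells without cytokine of the same experiment (y axis) for 8 of the genes at each cytokine and dose (x axis, with 100 pM and 1 nM to the left of the dotted line); blue is mIL-21, red is 21h10, filled points passed an edgeR adjusted p under 0.05, and bars are 95% intervals. Nkg7 lies between 0.86 and 1.77 in all 8 groups, whereas Klrk1 runs from 0.94 at 1 nM 21h10 to -0.79 at 100 nM 21h10.

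Compared at the same dose, the cytokines differed in several of these genes, in both directions at low doses and only downward at the highest dose. At 100 pM, 21h10 gave more Nkg7 and Klrc1 and less Klrd1 and Klre1 than mIL-21, that is 2 genes higher and 2 lower, where 38.6% of all genes tested were called, 19.6% higher and 19% lower. At 1 nM, Klrk1, Klrc1, Klrc2 and Nkg7 were higher and Klrd1 and Tyrobp were lower (37.7% called, 19.6% higher and 18.1% lower). At 10 nM, 0 of the 10 genes passed in edgeR, in DESeq2 or in limma, and 0 had an unadjusted edgeR p under 0.05, where 0.00726% of all genes tested were called, all of them higher. Klrg1 and Klrb1c stayed below an RPKM of 1 in experiment 2 and were not tested in limma. At 100 nM, Klrk1, Klrd1, Klrc1 and Klrc2 were lower with 21h10 and 0 genes were higher (8.52% called, 4.01% higher and 4.52% lower). The median log2 difference of the 10 genes was 0.13, -0.06, -0.18 and -0.35 from the lowest to the highest dose, against medians of all genes between -0.01 and 0.00.

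**Figure D3:**
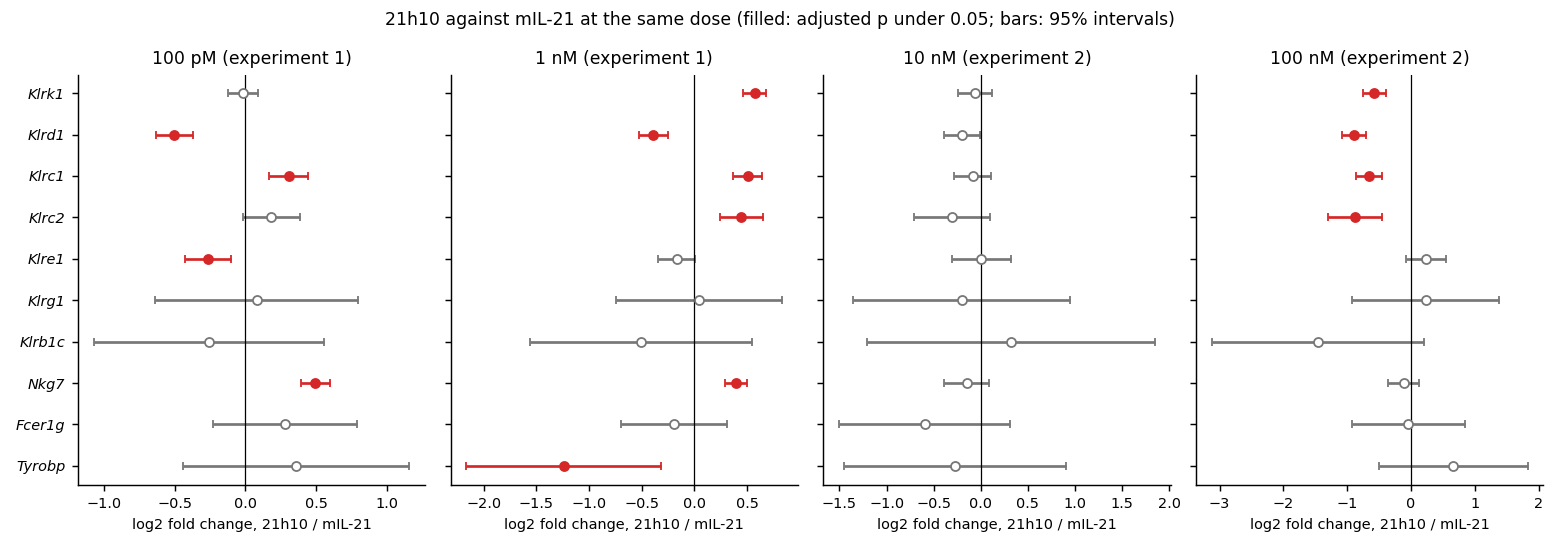
Difference between 21h10 and mIL-21 at equal dose, as a log2 fold change (x axis, a separate scale per panel) for the 10 genes (y axis), in 1 panel per dose; filled red points passed an edgeR adjusted p under 0.05, open gray points did not, and bars are 95% intervals. Klrk1, Klrc1 and Klrc2 lie above 0 at 1 nM (0.57, 0.50 and 0.45) and below 0 at 100 nM (-0.58, -0.66 and -0.88), while Klrd1 is below 0 at both.

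Klrk1, the NKG2D gene, had its highest level of experiment 1 with 1 nM 21h10 and its lowest level of experiment 2 with 100 nM 21h10. In experiment 1 the libraries had 33.5 and 32.9 scaled RPKM without cytokine, 42.1 and 41.6 with 100 pM mIL-21, 41.8 and 41.0 with 100 pM 21h10, 45.5 and 40.3 with 1 nM mIL-21, and 61.6 and 65.8 with 1 nM 21h10. Both libraries at 1 nM 21h10 were therefore above all others of that experiment. The log2 difference between 21h10 and mIL-21 was -0.02 at 100 pM (SE 0.0546, edgeR adjusted p = 0.833, 95% interval -0.12 to 0.09) and 0.57 at 1 nM (SE 0.0548, edgeR adjusted p = 2.58e-07). The change of this difference between the doses was 0.59 (SE 0.0773, edgeR adjusted p = 4.63e-05). With all libraries fitted, Klrk1 was the only one of the 10 genes to pass that test. Of all genes 18.4% were called, 8.34% higher and 10% lower. Klrc1, Klrd1, Fcer1g and Tyrobp passed it in some fits without 1 library. The change was 0.33 for Klrc1 and 0.25 for Klrd1 without the first duplicate at 1 nM mIL-21. Without the first at 1 nM 21h10 it was 0.29 for Klrc1 and -1.01 for Fcer1g. Without the second at 100 pM 21h10 it was -2.09 for Tyrobp. Raising the dose from 100 pM to 1 nM changed Klrk1 by 0.04 with mIL-21 (SE 0.0551, edgeR adjusted p = 0.653) and by 0.62 with 21h10 (SE 0.0543, edgeR adjusted p = 6.09e-08).

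In experiment 2 Klrk1 was highest without cytokine, with 82.0 and 90.7 scaled RPKM. It had 77.7 and 70.7 with 10 nM mIL-21, 75.2 and 66.9 with 10 nM 21h10, 79.0 and 69.8 with 100 nM mIL-21, and 50.7 and 49.0 with 100 nM 21h10. The last pair did not overlap any other group. Klrk1 was lower with 100 nM 21h10 than with 100 nM mIL-21 by a log2 value of -0.58 (SE 0.0920, edgeR adjusted p = 0.00087) and lower than without cytokine by -0.79 (SE 0.0921, edgeR adjusted p = 3.93e-06). Against the cells without cytokine it was -0.28 with 10 nM 21h10 (SE 0.0913, edgeR adjusted p = 0.0176). That call was lost in the fit of the compared groups alone (-0.27, edgeR adjusted p = 0.0609). It was also lost without the second duplicate of the cells without cytokine (-0.21) or the second at 10 nM 21h10 (-0.20). With mIL-21 it was -0.22 at 10 nM (edgeR adjusted p = 0.061) and -0.21 at 100 nM (0.0649), neither past the threshold after TMM. Both were called lower in limma (-0.39 and -0.43, adjusted p = 0.00845 and 0.00483), with library sizes from mapped reads (-0.40 and -0.43, edgeR adjusted p = 0.00264 and 0.00126) and without the first duplicate of the cells without cytokine (-0.29 each, edgeR adjusted p = 0.022 and 0.0246). That at 100 nM was also called without the first duplicate at 100 nM mIL-21 (-0.31, edgeR adjusted p = 0.0464). The fall of Klrk1 from 10 nM to 100 nM 21h10 was -0.51 (SE 0.0920, edgeR adjusted p = 0.00306). It was no longer past the threshold without the first duplicate at 10 nM (0.0633) or the second at 100 nM (0.0592).

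Hcst, which encodes the DAP10 adaptor of NKG2D, was highest with 100 pM mIL-21 in experiment 1, where Klrk1 was highest with 1 nM 21h10. Its level was 5.09 and 5.84 scaled RPKM without cytokine in experiment 1, 17.8 and 20.2 with 100 pM mIL-21, 14.9 and 11.9 with 100 pM 21h10, 11.97 and 17.0 with 1 nM mIL-21 and 10.6 and 10.3 with 1 nM 21h10. All 8 treated libraries were above the cells without cytokine, and the rise was largest at 100 pM mIL-21, with a log2 fold change of 1.81 (SE 0.155, edgeR adjusted p = 7.35e-09). Hcst was lower with 21h10 than with mIL-21 by -0.52 at 100 pM (SE 0.139, edgeR adjusted p = 0.00699) and by -0.48 at 1 nM (SE 0.158, edgeR adjusted p = 0.0236). The first of these calls was lost without the second duplicate of either group (edgeR adjusted p = 0.0795 without that of mIL-21 and 0.134 without that of 21h10), and so was the other (0.418 and 0.108). From 100 pM to 1 nM Hcst changed by -0.38 with mIL-21 (SE 0.146, edgeR adjusted p = 0.0531) and by -0.34 with 21h10 (SE 0.151, edgeR adjusted p = 0.0867). Both were called lower without a filter (edgeR adjusted p = 0.0047 and 0.0181) and in limma (adjusted p = 0.00542 and 0.0256). Library sizes from mapped reads gave the same calls (edgeR adjusted p = 0.00208 and 0.0152). In experiment 2 Hcst had 17.0 and 9.32 without cytokine and between 9.59 and 18.8 with cytokine. It passed in 0 of the comparisons of that experiment in edgeR. At an unadjusted edgeR p under 0.05 it was lower at 100 nM than at 10 nM with both cytokines. With mIL-21 the log2 value was -0.50 (edgeR adjusted p = 0.989). In that mIL-21 comparison, 361 of the 13772 genes tested had an unadjusted edgeR p under 0.05 and 0% were called. Some alternatives called Hcst against no cytokine in that experiment. With 10 nM mIL-21 it was higher without a filter (0.48, edgeR adjusted p = 0.0321) and with the duplicate number as a block (0.52, edgeR adjusted p = 0.0471). With 100 nM 21h10 it was lower in limma (-0.61, adjusted p = 0.0467) and with library sizes from mapped reads (-0.75, edgeR adjusted p = 0.0203). Without the first duplicate of the cells without cytokine it was higher with 10 nM mIL-21 (0.98) and 10 nM 21h10 (0.71). Without the second it was lower with 100 nM 21h10 (-0.81). The lower Hcst level at 100 nM than at 10 nM 21h10 (-0.65, edgeR adjusted p = 0.153) was called without a filter on low counts (-0.66, edgeR adjusted p = 0.0221) and without either duplicate of the cells without cytokine (0.0357 and 0.0337). With 9.89 and 9.59 scaled RPKM the libraries at 100 nM 21h10 were, as for Klrk1, below those of the other treated groups. The ratio of Klrk1 to Hcst in scaled RPKM was 6.60 and 5.64 without cytokine in experiment 1, 2.37 and 2.06 with 100 pM mIL-21, and 5.80 and 6.39 with 1 nM 21h10.

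Klrd1, the gene of the CD94 chain, rose least in experiment 1 where its NKG2 partners rose most, whereas in experiment 2 it and they were lowest among the treated groups with the same treatment, 100 nM 21h10. In experiment 1 Klrd1 had 127 and 121 scaled RPKM without cytokine, 233 and 246 with 100 pM mIL-21, 173 and 166 with 100 pM 21h10, 201 and 169 with 1 nM mIL-21 and 149 and 134.3 with 1 nM 21h10. At 100 pM mIL-21 both libraries were above all others, and every treated library was above the cells without cytokine. The log2 fold change against those cells was 0.95 with 100 pM mIL-21 (SE 0.0688, edgeR adjusted p = 7.59e-10) and 0.19 with 1 nM 21h10 (SE 0.0692, edgeR adjusted p = 0.0194). The second of these calls was lost in limma (adjusted p = 0.263), with library sizes from mapped reads (edgeR adjusted p = 0.176), without the second duplicate of the cells without cytokine (0.125) and without the first duplicate at 1 nM 21h10 (0.164). Klrd1 was lower with 21h10 than with mIL-21 by -0.50 at 100 pM (SE 0.0681, edgeR adjusted p = 1.84e-05) and by -0.39 at 1 nM (SE 0.0694, edgeR adjusted p = 0.000265). From 100 pM to 1 nM it fell by 0.37 on the log2 scale with mIL-21 (SE 0.0685, edgeR adjusted p = 0.000442) and by 0.26 with 21h10 (SE 0.0689, edgeR adjusted p = 0.00644), the latter not past the threshold without the second duplicate at 1 nM (0.0741) or the first at 100 pM (0.0614).

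In experiment 2 Klrd1 was already at 338 and 387 scaled RPKM without cytokine. It had 407 and 354 with 10 nM mIL-21, 346 and 315 with 10 nM 21h10 and 401 and 352 with 100 nM mIL-21, groups that all overlapped the cells without cytokine. At 10 nM 21h10 the log2 fold change was -0.13 (edgeR adjusted p = 0.265), and it was called lower in limma (-0.40, adjusted p = 0.00941) and with library sizes from mapped reads (-0.40, edgeR adjusted p = 0.00248). Both settings scale by mapped reads, and with such library sizes all genes shifted by a median of -0.27 in this comparison. With 100 nM 21h10 Klrd1 had 206.9 and 199, below every other library. Klrd1 was there lower than with 100 nM mIL-21 by -0.89 (SE 0.0979, edgeR adjusted p = 3.1e-05) and lower than without cytokine by -0.84 (SE 0.0977, edgeR adjusted p = 4.22e-06). The log2 difference between the cytokines changed by -0.69 from 10 nM to 100 nM (SE 0.137, edgeR adjusted p = 0.0221). Klrd1 was the only one of the 10 genes past that test in this fit, where 0.922% of all genes were called, 0.457% higher and 0.465% lower. Klrk1 (-0.51, edgeR adjusted p = 0.0833) and Klrc1 (-0.57, edgeR adjusted p = 0.0824) passed it in DESeq2 (adjusted p = 0.0159 and 0.0207), without a filter (edgeR adjusted p = 0.00412 and 0.00464), with the compared groups alone (0.0213 and 0.0152) and without either duplicate of the cells without cytokine (0.0143 to 0.0202). The Klrd1 call rested on single libraries: it was lost without either duplicate at 10 nM or 100 nM 21h10, without the second at 10 nM mIL-21 or without the first at 100 nM mIL-21, with edgeR adjusted p between 0.0548 and 0.149.

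Klrc1 (NKG2A) and Klrc2 (NKG2C) differed between the cytokines in the same direction, which at low doses was opposite to that of Klrd1. Klrc1 had 23.3 and 21.8 scaled RPKM without cytokine in experiment 1, 33.1 and 34.1 with 100 pM mIL-21, 41.5 and 41.5 with 100 pM 21h10, 45.8 and 38.7 with 1 nM mIL-21 and 56.1 and 63.5 with 1 nM 21h10. Klrc2 had 4.43 and 4.41, then 7.36 and 6.79, 8.40 and 7.78, 8.20 and 7.52, and 10.8 and 10.6 scaled RPKM in the same groups. For both genes the libraries without cytokine were the lowest and those at 1 nM 21h10 the highest of the experiment. The log2 rise over the cells without cytokine at 1 nM 21h10 was 1.41 for Klrc1 (SE 0.0716, edgeR adjusted p = 4.15e-12) and 1.27 for Klrc2 (SE 0.104, edgeR adjusted p = 2.99e-09). Klrc1 was higher with 21h10 than with mIL-21 by 0.31 at 100 pM (SE 0.0709, edgeR adjusted p = 0.00259) and by 0.50 at 1 nM (SE 0.0706, edgeR adjusted p = 2.14e-05), of which the first was not called in limma (adjusted p = 0.0737). Klrc2 was higher by 0.45 at 1 nM (SE 0.103, edgeR adjusted p = 0.00241), and its difference at 100 pM was 0.18 (SE 0.102, edgeR adjusted p = 0.173). As reads may be divided among Klrc1, Klrc2 and Klrc3, their reads were also summed. This gave 0.29 at 100 pM (edgeR adjusted p = 0.00261).

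At 100 nM, which belongs to experiment 2, the direction of this difference was the opposite. Klrc1 in experiment 2 had 32.3 and 38.1 scaled RPKM without cytokine, 49.3 and 47.4 with 10 nM mIL-21, 46.5 and 44.6 with 10 nM 21h10, 52.4 and 46.2 with 100 nM mIL-21 and 29.1 and 33.5 with 100 nM 21h10. Klrc2 had 6.88 and 10.0, then 11.2 and 11.2, 9.59 and 8.50, 11.5 and 9.94, and 4.81 and 6.90 scaled RPKM. In both genes the libraries at 100 nM 21h10 were below all of those with the other 3 treatments and overlapped the cells without cytokine. Against those cells the log2 fold change was -0.17 for Klrc1 (edgeR adjusted p = 0.18) and -0.53 for Klrc2 (0.0521). Klrc1 was called lower in limma (-0.45, adjusted p = 0.00263), with library sizes from mapped reads (-0.47, edgeR adjusted p = 0.000836) and without the first duplicate of the cells without cytokine (-0.29, edgeR adjusted p = 0.0319). Klrc2 was called lower in the same 3 settings (-0.69 to -0.83, adjusted p from 0.00337 to 0.00893 in limma or edgeR), without a filter (-0.54, edgeR adjusted p = 0.0192) and without the second duplicate at 100 nM 21h10 (-0.81, edgeR adjusted p = 0.0228). Relative to 100 nM mIL-21, Klrc1 was lower by -0.66 (SE 0.102, edgeR adjusted p = 0.000697) and Klrc2 by -0.88 (SE 0.216, edgeR adjusted p = 0.0188). The Klrc2 call was lost without the first duplicate at 100 nM mIL-21 (edgeR adjusted p = 0.151) or at 100 nM 21h10 (0.159). Klrc1 rose over the cells without cytokine by 0.46 with 10 nM mIL-21 (SE 0.1004, edgeR adjusted p = 0.00146), by 0.37 with 10 nM 21h10 (SE 0.101, edgeR adjusted p = 0.00602) and by 0.49 with 100 nM mIL-21 (SE 0.101, edgeR adjusted p = 0.000967). At 10 nM 21h10 that rise was not past the threshold without the first duplicate of the cells without cytokine (0.0562), in limma (adjusted p = 0.368) or with library sizes from mapped reads (edgeR adjusted p = 0.384).

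The proportion of CD94 to NKG2 transcripts therefore differed between groups. The ratio of Klrd1 to the sum of Klrc1, Klrc2 and Klrc3 was 4.33 and 4.31 without cytokine in experiment 1. It was 5.39 and 5.73 with 100 pM mIL-21, 3.31 and 3.18 with 100 pM 21h10, 3.51 and 3.46 with 1 nM mIL-21 and 2.14 and 1.74 with 1 nM 21h10. No group overlapped another in this ratio, in which 100 pM mIL-21 was above and the other 3 treatments were below the cells without cytokine. In experiment 2 the ratio was 8.12 and 7.65 without cytokine and between 4.73 and 6.44 in the 8 treated libraries, all of them below the cells without cytokine. The ratio of Klrc1 to Klrc2 stayed between 3.81 and 6.06 in all 20 libraries. Reads may be divided between these genes, and the part of this in the ratio was not tested.

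**Figure D4:**
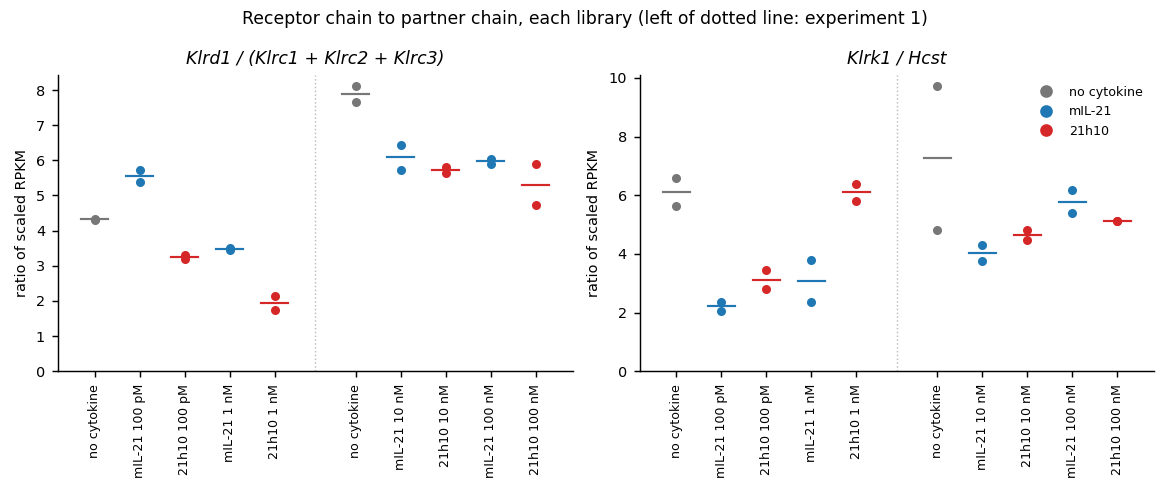
Ratio of scaled RPKM (y axis, starting at 0) of Klrd1 to the summed Klrc1, Klrc2 and Klrc3 (left panel) and of Klrk1 to Hcst (right panel) in each library, by group; points are libraries, short lines are group means, gray is no cytokine, blue is mIL-21, red is 21h10, and experiment 1 is left of the dotted line. The Klrd1 ratio is highest without cytokine in experiment 2 (8.12 and 7.65) and lowest with 1 nM 21h10 (2.14 and 1.74).

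Klre1 encodes a lectin-like receptor of NK cells that lies beside Klrd1 on the chromosome. Its levels in experiment 1 were 6.83 and 6.51 scaled RPKM without cytokine, 15.5 and 15.9 with 100 pM mIL-21, 13.3 and 12.8 with 100 pM 21h10, 14.1 and 11.8 with 1 nM mIL-21 and 11.5 and 11.4 with 1 nM 21h10. As with Klrd1, 100 pM mIL-21 gave the highest libraries and all treated libraries were above the cells without cytokine. The log2 fold change at 100 pM mIL-21 was 1.23 (SE 0.0888, edgeR adjusted p = 6.97e-10) and at 1 nM 21h10 0.78 (SE 0.0922, edgeR adjusted p = 4.8e-07). Klre1 was lower with 21h10 than with mIL-21 at 100 pM by -0.27 (SE 0.0833, edgeR adjusted p = 0.0176), a call lost without the first (0.066) or second (0.104) duplicate of mIL-21 or the second of 21h10 (0.125). In experiment 2 it lay between 8.67 and 14.0, and unlike its neighbors it was not lower with 100 nM 21h10, where it had 12.5 and 14.0 against 11.6 and 10.8 with 100 nM mIL-21 (log2 difference 0.24, SE 0.160, edgeR adjusted p = 0.396, 95% interval -0.07 to 0.55). Its rise at 100 nM 21h10 over the cells without cytokine was 0.45 (SE 0.160, edgeR adjusted p = 0.028). This call was lost without the first duplicate of those cells (0.199), without the second at 100 nM 21h10 (0.157), in limma (adjusted p = 0.331), with library sizes from mapped reads (edgeR adjusted p = 0.44) and in a fit of the 2 compared groups alone (0.0543).

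Nkg7 rose with either cytokine at every dose, and in experiment 1 it was higher at 1 nM than at 100 pM of the same cytokine. It had 166 and 167 scaled RPKM without cytokine, 309 and 295 with 100 pM mIL-21, 433 and 417 with 100 pM 21h10, 417 and 443 with 1 nM mIL-21 and 593 and 539 with 1 nM 21h10. The libraries at 1 nM 21h10 were above all others, and those at 100 pM mIL-21 were the lowest of the treated ones. The log2 fold change over the cells without cytokine went from 0.86 at 100 pM mIL-21 (SE 0.0530, edgeR adjusted p = 7.7e-11) to 1.77 at 1 nM 21h10 (SE 0.0537, edgeR adjusted p = 3.19e-15). Nkg7 was higher with 21h10 than with mIL-21 by 0.49 at 100 pM (SE 0.0523, edgeR adjusted p = 1.17e-06) and by 0.40 at 1 nM (SE 0.0521, edgeR adjusted p = 1.07e-05). In experiment 2 it had 190 and 135.6 without cytokine, 386 and 440 with 10 nM mIL-21, 397 and 347 with 10 nM 21h10, 380 and 383 with 100 nM mIL-21 and 364 and 340 with 100 nM 21h10. All 8 treated libraries were above the cells without cytokine, with log2 fold changes between 1.11 and 1.34. The differences between the cytokines were -0.15 at 10 nM (SE 0.123, edgeR adjusted p = 0.732, 95% interval -0.39 to 0.09) and -0.12 at 100 nM (SE 0.123, edgeR adjusted p = 0.622, 95% interval -0.36 to 0.13).

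Of the adaptors with activation motifs, Fcer1g, the common γ chain of Fc receptors, was the more abundant. Fcer1g had 1.46 and 1.19 scaled RPKM without cytokine in experiment 1, 1.72 and 2.14 with 100 pM mIL-21, 2.24 and 2.39 with 100 pM 21h10, 2.72 and 3.14 with 1 nM mIL-21 and 3.57 and 1.77 with 1 nM 21h10. All treated libraries, with 55 to 146 reads each, were above those without cytokine. Its log2 rise was 0.79 with 100 pM 21h10 (SE 0.249, edgeR adjusted p = 0.00803), 1.12 with 1 nM mIL-21 (SE 0.261, edgeR adjusted p = 0.000796) and 0.93 with 1 nM 21h10 (SE 0.267, edgeR adjusted p = 0.00426). The first call was lost without the second duplicate of the cells without cytokine (edgeR adjusted p = 0.0515) or of the treated cells (0.0566), and the last without the first duplicate at 1 nM 21h10 (0.192). In experiment 2 Fcer1g was between 0.833 and 2.87, and in edgeR it passed in 0 of the comparisons there, with 0 at an unadjusted p under 0.05. Without a filter on low counts it passed with 10 nM mIL-21 against no cytokine (edgeR adjusted p = 0.0472). Both genes with activation motifs are also expressed in myeloid cells. The summed level of 8 myeloid markers was 4.31 to 4.61 scaled RPKM without cytokine and 18.5 to 42.6 with cytokine in experiment 1. It was 5.76 to 6.29 and 17.9 to 31.3 in experiment 2. With cytokine nearly all of it was Cd68 and Itgam. Csf1r and Fcgr1 had 3 reads or fewer in all 20 libraries, Lyz2 in 16, Adgre1 (listed as Emr1) in 15, Mpeg1 in 13 and Cybb in 12. In experiment 1, 4 of the markers were tested, and 2 were higher and 2 lower than without cytokine in every treated group. There 38.3% to 40.2% of all genes were called higher and 39.4% to 42.1% lower. In experiment 2, 3 were tested, 1 or 2 higher and 1 lower (22.5% to 25.2% and 23.7% to 25.8%).

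Tyrobp, the DAP12 adaptor, was covered by between 7 and 41 reads per library. In experiment 1 it had 0.573 and 0.514 scaled RPKM without cytokine, 0.510 and 0.498 with 100 pM mIL-21, 0.915 and 0.476 with 100 pM 21h10, 0.678 and 0.874 with 1 nM mIL-21 and 0.346 and 0.314 with 1 nM 21h10. The libraries at 1 nM 21h10 were the lowest, and the difference from 1 nM mIL-21 was -1.24 (SE 0.471, edgeR adjusted p = 0.0469). This call was lost in DESeq2 (adjusted p = 0.12) and without any one of 8 of the 10 libraries of the experiment (edgeR adjusted p from 0.0603 to 0.228), both duplicates of each of the 2 compared groups among them. In experiment 2 Tyrobp was highest without cytokine, at 1.74 and 1.49, against 0.491 to 1.38 with cytokine, and passed in 0 of the comparisons in edgeR, with 0 at an unadjusted p under 0.05. In limma it was called lower than without cytokine with 10 nM mIL-21 (adjusted p = 0.0253), 10 nM 21h10 (0.00877) and 100 nM mIL-21 (0.011), and with library sizes from mapped reads it was called lower with 10 nM 21h10 (edgeR adjusted p = 0.0425).

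Klrg1 and Klrb1c were barely detected. Klrg1, with 11 to 53 reads per library, had 0.158 and 0.186 scaled RPKM without cytokine in experiment 1 and between 0.225 and 0.454 in the treated libraries, all of which were higher. The 4 log2 fold changes were between 1.04 and 1.11, with edgeR adjusted p between 0.0119 and 0.032. Each was lost without the first duplicate of the cells without cytokine (edgeR adjusted p from 0.101 to 0.158), and those of mIL-21 also without the second (0.0557 at 100 pM and 0.0532 at 1 nM) and in DESeq2 (adjusted p = 0.0711 and 0.0617). They were further lost without the first duplicate at 100 pM mIL-21 (0.542) or 1 nM mIL-21 (0.233) and without the second at 100 pM 21h10 (0.178) or 1 nM 21h10 (0.256), each in its own comparison. In experiment 2 Klrg1 was between 0.260 and 0.653 and the group without cytokine overlapped all others. The difference between the cytokines in Klrg1 was 0.08 at 100 pM (SE 0.365, 95% interval -0.64 to 0.80) and 0.04 at 1 nM (SE 0.403, 95% interval -0.74 to 0.83), intervals too wide to show a change of the size seen in Klrk1.

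Klrb1c, a lectin-like NK receptor of the NKR-P1 family, had 10 to 47 reads per library in experiment 1 and 1 to 34 in experiment 2. It passed in 0 comparisons of experiment 1 in edgeR, with 0 at an unadjusted p under 0.05. In experiment 2 it had 0.311 and 0.259 scaled RPKM without cytokine against 0.0141 to 0.135 in the treated libraries, all of which were lower. The log2 fold change was -2.06 with 10 nM mIL-21 (SE 0.671, edgeR adjusted p = 0.0195), -1.74 with 10 nM 21h10 (SE 0.680, edgeR adjusted p = 0.0434), -1.35 with 100 nM mIL-21 (SE 0.646, edgeR adjusted p = 0.0992) and -2.81 with 100 nM 21h10 (SE 0.768, edgeR adjusted p = 0.00665). The first call was lost without either duplicate of the cells without cytokine or of 10 nM mIL-21 (-1.93 to -2.19). The call at 10 nM 21h10 was lost in DESeq2 (-1.75, adjusted p = 0.0847) and without a filter on low counts (-1.74, edgeR adjusted p = 0.0897). It was also lost without any one of 8 libraries (-1.22 to -2.51). That at 100 nM 21h10 was lost without its second duplicate (-2.16).

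Both cytokines were also compared at unequal doses within experiment 1. Between 100 pM 21h10 and 1 nM mIL-21, 0 of the 10 genes passed in edgeR, in DESeq2 or in limma, and 0 had an unadjusted edgeR p under 0.05, where 0.737% of all genes were called, 0.157% higher and 0.58% lower. Klrg1, Klrb1c and Tyrobp stayed below an RPKM of 1 in experiment 1 and were not tested in limma. The log2 difference was -0.05 for Klrk1 (95% interval -0.16 to 0.05), -0.02 for Nkg7 (-0.12 to 0.08), -0.02 for Klrc1 (-0.16 to 0.11), 0.02 for Klre1 (-0.15 to 0.19) and -0.13 for Klrd1 (-0.26 to 0.00). Each of these differences was smaller in size than the log2 difference of the same gene between the cytokines at 100 pM, Klrk1 excepted. Raising mIL-21 from 100 pM to 1 nM raised Klrc1 and Nkg7 and lowered Klrd1 and Klre1 (34.5% of all genes called, 17.9% higher and 16.6% lower), the 4 genes that separated the cytokines at 100 pM. The Klre1 call among these was lost without the second duplicate at 1 nM (edgeR adjusted p = 0.234) or either one at 100 pM (0.0649 and 0.097). The same step with 21h10 raised Klrk1, Klrc1, Klrc2 and Nkg7 and lowered Klrd1 (39.2% called, 20.1% higher and 19.1% lower). These comparisons share libraries with those at equal dose. In experiment 2 the step from 10 nM to 100 nM mIL-21 changed 0 of the 10 genes in edgeR, DESeq2 and limma, the last without Klrg1 and Klrb1c. With mIL-21, 0 had an unadjusted edgeR p under 0.05 (0% of all genes called). With 21h10 the step lowered Klrk1, Klrd1 and Klrc1 (5.33% called, 1.88% higher and 3.45% lower). The Klrc1 call was lost without the first duplicate at 100 nM (-0.45). Klrc2 was called lower for this 21h10 step without a filter (-0.64, edgeR adjusted p = 0.0274) and without either duplicate of the cells without cytokine (-0.64 each).

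Other lectin-like receptors, NK-type receptors, signaling proteins and ligands were taken from lists. Among 19 further lectin-like receptor genes, 15 could be tested, and against the cells without cytokine 11 rose and 1 fell with 100 pM mIL-21 (38.3% of all genes were called higher and 39.4% lower). The counts were 10 and 1 with 100 pM 21h10 (40.2% and 41.3%), 10 and 0 with 1 nM mIL-21 (39.9% and 40.3%) and 8 and 0 with 1 nM 21h10 (38.3% and 42.1%). In experiment 2 the counts were 8 and 1 with either cytokine at 10 nM, 7 and 0 with 100 nM mIL-21 and 6 and 1 with 100 nM 21h10, where 22.5% to 25.2% of all genes were called higher and 23.7% to 25.8% lower. Compared with mIL-21, 21h10 gave 2 higher and 5 lower at 100 pM (19.6% and 19% of all genes), 0 higher and 4 lower at 1 nM (19.6% and 18.1%), and 0 higher and 1 lower at 100 nM (4.01% and 4.52%). Klrb1f, an NKR-P1 family gene, was higher by 1.58 at 100 pM (SE 0.124, edgeR adjusted p = 3.05e-08), with a mean of 6.04 scaled RPKM against 2.04. Klra6 of the Ly49 family was lower by -0.81 at 100 pM (SE 0.0996, edgeR adjusted p = 5.98e-06) and by -0.84 at 1 nM (SE 0.120, edgeR adjusted p = 2.6e-05). Other Ly49 genes were lower too, Klra8 by -1.16 at 100 pM (edgeR adjusted p = 0.00581), Klra10 by -0.86 at 1 nM (0.00867) and Klra1 by -0.50 at 1 nM (0.0015). The Klra10 call was lost without the second duplicate at 1 nM 21h10 (edgeR adjusted p = 0.146). Ly49 genes are close relatives of one another, and near-identical copies were sought only for the 10 genes and Klrc3. At 100 nM Klri2, which pairs with Klre1, was lower by -1.06 (SE 0.197, edgeR adjusted p = 0.00306).

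Of 15 other NK-type receptors, 14 were tested. Relative to mIL-21, 5 were higher and 5 lower with 21h10 at 100 pM (19.6% and 19% of all genes), 1 higher and 6 lower at 1 nM (19.6% and 18.1%), and 3 higher and 3 lower at 100 nM (4.01% and 4.52%). Cd160, an immunoglobulin-like receptor, was lower at 1 nM by -2.69 (SE 0.0795, edgeR adjusted p = 1.41e-13), with 1.97 scaled RPKM on average against 12.8, and Slamf6, a receptor of the SLAM family, was lower there by -1.53 (SE 0.0985, edgeR adjusted p = 1.91e-09) and at 100 pM by -1.10 (SE 0.0771, edgeR adjusted p = 7.1e-09). Lilrb4, an inhibitory immunoglobulin-like receptor, was higher at 1 nM by 1.25 (SE 0.0751, edgeR adjusted p = 7.6e-10) and at 100 nM by 0.86 (SE 0.0825, edgeR adjusted p = 7.49e-06). Calls that rested on single libraries were those of Pilrb1, higher by 1.59 at 100 pM (edgeR adjusted p = 0.0256) and by 1.12 at 100 nM (0.0182), of Siglec5, higher by 1.08 at 100 pM (0.00773), and of Cd300a, higher by 0.89 at 100 nM (0.0147). Siglec5, the symbol under which Siglecf was found, had 0 to 80 reads per library and a median of 0.108 scaled RPKM. It had 3 reads or fewer in 6 of the 20 libraries. Pilrb1 at 100 pM was lost without the first duplicate of mIL-21 (edgeR adjusted p = 0.259) or the second of 21h10 (0.136). At 100 nM it was lost without either duplicate of mIL-21 (0.0852 and 0.129) or the first of 21h10 (0.135). Siglec5 was lost without the first duplicate at 100 pM mIL-21 (edgeR adjusted p = 0.13), and Cd300a without the first at 100 nM mIL-21 (0.199) or the second at 100 nM 21h10 (0.196).

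Among 24 signaling partners of these receptors, 22 were tested, and 5 were higher and 9 lower with 21h10 than with mIL-21 at 100 pM (19.6% and 19% of all genes), 6 and 10 at 1 nM (19.6% and 18.1%), and 1 and 2 at 100 nM (4.01% and 4.52%). Plcg2, a phospholipase downstream of activation motifs, was higher by 1.25 at 100 pM (SE 0.0506, edgeR adjusted p = 7.6e-12) and by 0.83 at 1 nM (SE 0.0479, edgeR adjusted p = 4.87e-10), but lower by -0.71 at 100 nM (SE 0.0846, edgeR adjusted p = 6.47e-05). Plcg2 was thus higher with 21h10 at 1 nM in experiment 1 and lower at 100 nM in experiment 2, as were Klrk1, Klrc1 and Klrc2. Dose and experiment cannot be told apart in this contrast. Sh2d2a, a T cell adaptor, was lower by -0.78 at 100 pM (SE 0.0423, edgeR adjusted p = 2.54e-10) and by -1.11 at 1 nM (SE 0.0447, edgeR adjusted p = 5.46e-12). Syk, the kinase recruited by Fcer1g and Tyrobp, was at a low level and higher at 1 nM by 2.09 (SE 0.269, edgeR adjusted p = 8.49e-06), with 0.379 scaled RPKM on average against 0.0903. At 100 nM Syk was higher by 1.37 (edgeR adjusted p = 0.0349) and Pik3cd, a catalytic subunit of phosphoinositide 3-kinase, was lower by -0.35 (0.0212). Both calls were lost without any one of the 4 libraries compared (edgeR adjusted p from 0.108 to 0.226 for Syk and from 0.097 to 0.14 for Pik3cd). Lat2, an adaptor related to Lat, was higher by 0.98 at 100 pM (SE 0.0672, edgeR adjusted p = 4.74e-09).

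Of 16 ligand genes for these receptors, 15 were listed and 10 were tested in experiment 1 and 7 in experiment 2. With 21h10 against mIL-21, 1 was higher and 1 lower at 100 pM (19.6% and 19% of all genes), 2 higher and 1 lower at 1 nM (19.6% and 18.1%), and 2 higher and 0 lower at 100 nM (4.01% and 4.52%). H2-T23, which encodes the Qa-1 ligand of CD94 and NKG2A, was expressed by these cells at a mean of 204.1 scaled RPKM with 100 pM 21h10 and 224 with 100 pM mIL-21. The log2 difference was -0.14 (SE 0.0469, edgeR adjusted p = 0.0286). Without a filter on low counts it was not called (edgeR adjusted p = 0.0614). It was not past the threshold without any one of 6 libraries (edgeR adjusted p from 0.0545 to 0.229), both duplicates of the cells without cytokine and of the 2 compared groups. Cdh1, the E-cadherin ligand of Klrg1, was lower by -1.82 at 1 nM (SE 0.0804, edgeR adjusted p = 1.65e-11) and higher by 1.07 at 100 nM (SE 0.183, edgeR adjusted p = 0.0016). Ulbp1, a ligand of NKG2D, was higher by 0.58 at 100 nM (SE 0.118, edgeR adjusted p = 0.00563), a call lost without the second duplicate of 100 nM mIL-21 (0.0874) or of 100 nM 21h10 (0.0546). The remaining ligand calls were small: Clec2i was higher by 0.23 at 100 pM (edgeR adjusted p = 0.0274), Ulbp1 by 0.22 at 1 nM (0.0417) and Clec2d by 0.15 at 1 nM (0.0408). In limma all of these were lost (adjusted p = 0.245, 0.126 and 0.168). They were also lost with library sizes from mapped reads (edgeR adjusted p = 0.218, 0.148 and 0.232). With the compared groups alone Ulbp1 (0.123) and Clec2d (0.169) were lost. Clec2d was further lost without a filter (0.0625) and with the duplicate number as a block (0.0553). Clec2i was lost without the first duplicate at 100 pM mIL-21 or either at 100 pM 21h10 (edgeR adjusted p from 0.0613 to 0.357). Ulbp1 and Clec2d were each lost without any one of 7 libraries (0.0551 to 0.393 and 0.0503 to 0.116).

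The patterns of the genes were compared over the 10 group means of log2 CPM (counts scaled to library size), each experiment centered on its own mean, as a description without a test. The groups share libraries of unequal depth. Klrc1 and Klrc2 were alike (r = 0.96), as were Fcer1g and Nkg7 (r = 0.85), Klrc2 and Klrk1 (r = 0.83) and Klrc1 and Nkg7 (r = 0.83), whereas Klrd1 and Nkg7 were not (r = 0.07). Parts of the Klrc1 and Klrc2 transcripts are near-identical, and the part of shared reads in their likeness was not tested. Among 13248 genes tested in both experiments, those most like Nkg7 were Sema4d, Atp2b4 and Adamtsl4 (r = 0.998, 0.997 and 0.997). Klrd1 was most like Cecr5, Gm6297 and Bcas3 (r = 0.98 each), Klrc1 most like Sf3b1, Marf1 and Asxl1 (r from 0.98 to 0.99), and Klrc2 most like Plcxd2, Marf1 and Ss18l1 (r from 0.96 to 0.97). Klre1 was most like Itgb3, 2210404O07Rik and Fyb (r = 0.98 each). The genes with few reads had Sncb, Slc16a3 and Jag2 (Klrg1), Slc22a5, Parp8 and Nnt (Klrb1c), Tmem140, Myo1c and Kdelr3 (Fcer1g) and Lrp5, Phactr2 and Klf16 (Tyrobp) as their nearest.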

How the data were processed

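RNA was sequenced from 20 libraries (5 groups of 2 in each of 2 experiments). Per the labels and the study's methods, the authors isolated RNA in TRIzol, made libraries with a KAPA mRNA kit, sequenced on an Illumina NovaSeq and mapped to mm10 (GRCm38). The submitters' processing notes list Bowtie2 2.2.6, TopHat2 2.0.11, SAMtools 0.1.8, bedtools 2.25.0 and edgeR. The deposited counts are whole reads per RefSeq transcript in each library, with duplicates kept apart, and the deposited RPKM values divide them by transcript length and mapped reads. The counting tool, the use of strand and the annotation version are not given in the sources used here, so reads of overlapping genes cannot be told apart.

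Each symbol was represented by its longest of the 31682 listed transcripts. Counts were tested in R 4.3.3 with edgeR 4.0.16 (filterByExpr with a least count of 10 and a least total of 15, TMM, glmQLFit, glmQLFTest), all 10 libraries of an experiment in 1 fit with group as the factor, which left 13974 and 13772 genes. A gene was called at a p under 0.05 after Benjamini-Hochberg adjustment over all genes tested, intervals are normal 95% intervals from the standard error, and a level at 3 reads or fewer was taken as at the floor, which covers counting error only. With 2 libraries a side, the smallest two-sided exact permutation p is 0.33, so that test was not used. Scaled RPKM is computed as RPKM with the TMM-scaled library size in place of mapped reads. Sequences were compared with BLAST 2.17.0, and tables were joined in Python 3.11.15. On simulated counts for 21h10 against mIL-21 at 100 pM (13668 genes), 79.2% of genes changed by a log2 value of 0.5 and 92.9% of those changed by 1 were recovered. At 100 nM (13298 genes) these were 35.7% and 86.7%. The simulation gave every gene the common dispersion of its experiment (0.00187 and 0.00774) and changed genes drawn at random. These rates therefore do not hold for genes that vary more between libraries, and they are not rates for the 10 genes.

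The 10 genes, the lists and the tests were chosen with earlier results of these data known. All 10 genes are named with Hcst, from each list at most 3 genes past the threshold with the largest difference between the cytokines at 100 pM, 1 nM or 100 nM, and for each of the 10 genes the 3 with the most similar group means, of which those of Klrk1 are not reported here. Alternatives were DESeq2 1.42.0, no filter, limma 3.58.1 on log2(RPKM + 1), a further limit of 1 on the log2 fold change, a fit of the compared groups alone, the duplicate number as a block, library sizes from mapped reads, the most-read transcript, summed Klrc reads and each library left out. Duplicate numbers were not taken to pair libraries: deviations of same-numbered libraries correlated between -0.06 and 0.03 in experiment 1 and between -0.17 and 0.23 in experiment 2, where 3 of 10 pairs of groups were above 0.1.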

Additional observations from a re-analysis of the deposited data

Results flagged for a closer look

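Klrk1 and Klrd1 stood out because the difference between the cytokines itself differed between doses. For Klrk1 the log2 difference of 21h10 from mIL-21 changed by 0.59 between 100 pM and 1 nM (edgeR adjusted p = 4.63e-05), and the call held in each alternative fit and without each library in turn, but the value is below the further limit of 1 on the log2 fold change. For Klrd1 it changed by -0.69 between 10 nM and 100 nM (edgeR adjusted p = 0.0221), and the call was lost in limma (adjusted p = 0.133) and without any one of 6 libraries (edgeR adjusted p from 0.0548 to 0.149). Both values come from the fit of 10 libraries within an experiment, and their causes were not tested.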

How the results depend on the processing

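Of the 10 genes, how many passed the threshold changed most under a further limit of 1 on the log2 fold change, as most differences between the cytokines were smaller. With it the count against the cells without cytokine was 2 at 100 pM mIL-21, 2 at 100 pM 21h10, 3 at 1 nM mIL-21, 4 at 1 nM 21h10, 2 at 10 nM 21h10, 1 at 100 nM mIL-21 and 2 at 100 nM 21h10. It was 0 for 21h10 against mIL-21 at 100 pM and 100 nM, 1 at 1 nM, 0 for 1 nM against 100 pM of either cytokine, 0 for 100 nM against 10 nM 21h10, and 0 for both changes of the cytokine difference with dose. In limma, 4 genes passed at 100 nM mIL-21 against no cytokine and 0 for the change between 10 nM and 100 nM, for which DESeq2, the absence of a filter and the fit of the compared groups alone each gave 3. Limma left out genes that did not reach an RPKM of 1 in 2 libraries of the experiment. With each library left out in turn, the counts in experiment 1 were 6 to 8 for 100 pM mIL-21, 100 pM 21h10 and 1 nM 21h10 and 7 to 8 for 1 nM mIL-21 against no cytokine, 3 to 4 and 5 to 6 for the cytokines at 100 pM and 1 nM, 3 to 5 and 4 to 6 for the dose steps of mIL-21 and 21h10, and 1 to 3 for the change of the cytokine difference. In experiment 2 they were 2 to 3 for either dose of mIL-21, 2 to 4 and 4 to 6 for 10 nM and 100 nM 21h10 against no cytokine, 3 to 4 between the cytokines at 100 nM, 2 to 4 for the 21h10 dose step and 0 to 3 for the change of the cytokine difference. The counts of 0 stayed 0 there. Over all genes, calls differed by more than 1.5 times in some comparisons: between the cytokines at 10 nM 1 gene was called, against 13 in DESeq2, 4 with the block, 0 in limma and more than 100 both with the compared groups alone and without a filter (179 in the latter), and at 100 nM 1174 against 2026 with the compared groups alone. For 100 nM against 10 nM 21h10 it was 734 against 1553 with the compared groups alone, 1150 without a filter and 409 in limma. For the change between these doses it was 127 against 218 in DESeq2, 265 with the compared groups alone, 257 without a filter and 63 in limma. For 100 pM 21h10 against 1 nM mIL-21 it was 103 against 195 without a filter and 41 in limma, and for 100 nM against 10 nM mIL-21 0 against 14 without a filter. Without 1 library, the calls over all genes in experiment 2 were 373 to 1928 between the cytokines at 100 nM (fewest without the first duplicate at 100 nM mIL-21, most without the first of the cells without cytokine), 254 to 1288 for 100 nM against 10 nM 21h10 (fewest without the first at 100 nM, most without the second of the cells without cytokine), 45 to 269 for the change between these doses (fewest without the second at 10 nM 21h10, most without the first of the cells without cytokine) and 0 to 8 between the cytokines at 10 nM. In experiment 1 they were 31 to 199 for 100 pM 21h10 against 1 nM mIL-21 (fewest without the second at 100 pM 21h10, most without the first at 1 nM 21h10), 3505 to 6087 between the cytokines at 100 pM and 3008 to 5501 for 1 nM against 100 pM mIL-21 (fewest in both without the first at 100 pM mIL-21), and 1650 to 3268 for the change between these doses (fewest without the second at 100 pM mIL-21). A lone library left in a group was assumed to vary like the others. With the replicate block all 19 counts stayed within 1.5 times: Tyrobp at 1 nM was lost (edgeR adjusted p = 0.0538), and Klrk1 passed at 10 nM and 100 nM mIL-21 against no cytokine (0.0431 and 0.0459). No called log2 fold change of the 10 genes turned its direction under any alternative. Depth limits Klrg1, Klrb1c, Fcer1g and Tyrobp, which had 1 to 146 reads per library.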
